A study of Mus musculus with 2 samples.

Results

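Committed oligodendrocyte precursor-like cells, sought here in gliomas of mice, are cells that carry transcripts of the step between the dividing oligodendrocyte precursor and the myelinating oligodendrocyte. A cell was taken as a member when it had at least 1 UMI (unique molecular identifier, a counted transcript molecule) for at least 3 of 6 genes, Enpp6, Bmp4, Bfsp2, Fa2h, Mycl and 9630013A20Rik. By that rule 75 of 3506 cells of pool 1 and 45 of 3278 cells of pool 2 were members, 120 of 6784 in all. Members made up 2.14% of pool 1, with a 95% interval (Clopper-Pearson) from 1.69 to 2.67%, and 1.37% of pool 2, from 1.003 to 1.83%. The mean was 1.76% ± 0.542 (SD, n = 2).

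The tumours had been induced in C57BL/6 mice by transferring a PDGFB gene in utero into the embryonic telencephalon, and were taken about 40 days after birth. Tumour cells were enriched by fluorescence-activated sorting on GFP. There was 1 group of 2 libraries, each holding cells of 2 tumours mixed before capture, with no control group, so every comparison is between members and the other cells of the same library. The label calls all of them glioma cells; whether a given cell carries the transferred gene was not read from these counts. Libraries were made with the 10x Genomics 3′ v3.1 Dual Index chemistry, from 4000 cells partitioned per pool. Pool 1 held 33.9 M UMIs in 3843 barcodes and pool 2 held 40.9 M UMIs in 3650 barcodes, before cells with fewer than 500 detected genes or over 15% mitochondrial UMIs were set aside. Members were deeper than other cells: a median member held 13394 UMIs (pool 1) or 16454 (pool 2), and a median other cell 7167 or 11183. Pool and sex coincided: in pool 1 all 75 members had Xist and no Y-linked gene was listed, while in pool 2 no member had Xist and 35 of 45 had a UMI of a Y-linked gene, so differences between the pools and between the sexes cannot be told apart. Of the barcodes, 4 occurred in both pools, and none of these was a member.

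In the brain, oligodendrocyte precursors divide in response to platelet-derived growth factor, which acts through the receptor Pdgfra. When a precursor commits, it stops dividing, loses the receptor, passes through a stage marked by the receptor Gpr17, and switches on the regulator Myrf, which drives the genes of compact myelin. Bone morphogenetic protein, WNT and Notch signals are known for holding this step back, and the enzymes of galactolipid synthesis and the cytoskeleton are remodelled as the cell extends its sheets.

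The 6 genes of the rule do unlike things. Enpp6 (GRCm38 chromosome 8, 46986887 to 47096762, plus strand) encodes a choline-specific phosphodiesterase of new oligodendrocytes, and Bmp4 (chromosome 14, 46383520 to 46390669, minus strand) a secreted bone morphogenetic protein. Bfsp2 (chromosome 9, 103424924 to 103480420, minus strand) is an intermediate filament gene best known from the lens, Fa2h (chromosome 8, 111345135 to 111393824, minus strand) the hydroxylase of myelin galactolipids, and Mycl (chromosome 4, 122995652 to 123002485, plus strand) a MYC family gene. 9630013A20Rik (chromosome 14, 84458639 to 84476424, minus strand) is annotated as an antisense gene. Whether counting used strand is not given in the sources used here, so its level may hold reads of an overlapping gene. To show the stretches from which these genes start, the 250 bases before the RefSeq start site are printed for 3 of them, 5′ to 3′ on the gene's own strand, from RefSeq on GRCm38.p6. Capitals mark matches, on either strand, to ACAATG, a core recognised by SOX factors, and to CAGCTG, an E-box recognised by basic helix-loop-helix factors.
Enpp6, chr8:46986637-46986886, plus strand: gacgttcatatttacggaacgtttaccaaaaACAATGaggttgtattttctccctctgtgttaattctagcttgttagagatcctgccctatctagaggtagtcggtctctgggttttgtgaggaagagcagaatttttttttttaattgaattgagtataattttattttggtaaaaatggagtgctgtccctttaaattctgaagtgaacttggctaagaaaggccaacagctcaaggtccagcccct
9630013A20Rik, chr14:84476425-84476674, minus strand: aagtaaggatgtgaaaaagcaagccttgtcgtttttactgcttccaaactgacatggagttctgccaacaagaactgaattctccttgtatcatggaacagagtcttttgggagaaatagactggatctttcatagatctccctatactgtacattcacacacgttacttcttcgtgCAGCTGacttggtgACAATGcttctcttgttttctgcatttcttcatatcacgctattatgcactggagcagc
Bmp4, chr14:46390670-46390919, minus strand: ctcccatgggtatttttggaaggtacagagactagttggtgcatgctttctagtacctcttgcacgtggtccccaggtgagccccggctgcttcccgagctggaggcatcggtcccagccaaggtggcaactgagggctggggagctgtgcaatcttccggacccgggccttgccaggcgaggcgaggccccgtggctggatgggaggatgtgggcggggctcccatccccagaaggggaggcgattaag
Of the 6 genes, 5 had a start window in the table. ACAATG was found in 2 of the 5, Enpp6 and 9630013A20Rik, and in 10.7% of all 32851 windows. CAGCTG was found in 1 of the 5, 9630013A20Rik, and in 13.0% of all windows. Neither ACAAAG, a second SOX core (16.5% of all windows), nor TCAAAG, the core recognised by TCF and LEF factors (13.8%), which differs from it in the first letter only, was found in any of the 5. In 9630013A20Rik, CAGCTG begins 73 bases and ACAATG 59 bases before the start. A match describes these letters and is not evidence of a bound site.

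The rule's own genes chose the members, so their values are a description. Enpp6 stood at 650 CPM (UMIs of the gene scaled to a common total of UMIs per set of cells) in members of pool 1 and 615 CPM in those of pool 2, against 1.18 and 0.633 CPM in other cells. Bmp4 stood at 217 and 140 CPM in members, against 0.653 and 0.683 CPM. The least selective of the 6 was Fa2h, at 171 and 120 CPM in members against 10.0 and 9.85 CPM in other cells. Mycl was the gene that the most members had, 92.0% and 91.1% of them, and in pool 2 Enpp6 was the one that the fewest had, 62.2%. In other cells, which may hold free RNA as well as their own, the share with a UMI ran from 0.526% (Enpp6, pool 2) to 7.78% (Fa2h, pool 1). The part of free RNA was not measured.

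Members were not alike, and split by how many of the 6 genes they had. In pool 1, 29 members had all 6 genes, 19 had 5, 10 had 4 and 17 had 3, while 112 other cells had 2. In pool 2, 19 members had all 6, only 2 had 5, 10 had 4 and 14 had 3, while 86 other cells had 2. Cells with 5 or 6 genes thus numbered 48 and 21, and cells with 3 or 4 numbered 27 and 24. Just inside the threshold, cells with 3 genes had Gpr17 at 764 and 777 CPM, and just outside it, cells with 2 genes had 453 and 275 CPM. Pdgfra was at 913 and 868 CPM just inside and at 1131 and 1285 CPM just outside. Bcas1, an early myelinating-stage gene, was at 653 and 716 CPM inside and 355 and 282 CPM outside.

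**Figure D1:**
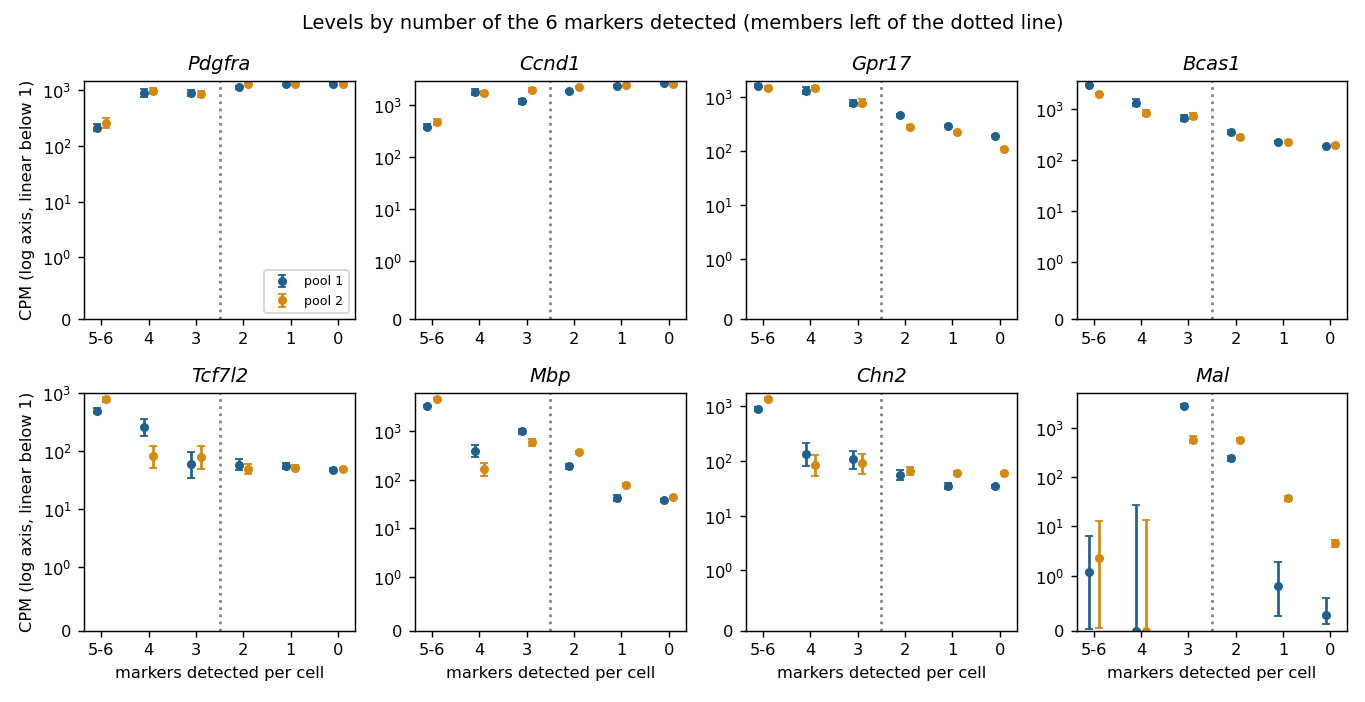
CPM of 8 genes (vertical axis, logarithmic above 1 and linear below) in cells grouped by how many of the 6 genes of the rule they had (horizontal axis), for pool 1 and pool 2, with exact Poisson 95% intervals. Pdgfra and Ccnd1 are lowest at 5 or 6 genes, with Pdgfra at 215 and 262 CPM; Bcas1, Tcf7l2, Mbp and Chn2 are highest there in both pools, Gpr17 in pool 2 is as high at 4 genes (1453 CPM) as at 5 or 6 (1449 CPM), and Mal is at 1.17 and 2.34 CPM there but at far higher levels at 3 genes.

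The label was checked per cell against precursor and myelin genes that the rule did not use. A list of 16 precursor genes made up a median of 0.616% and 0.697% of a member's UMIs, against 1.31% and 1.24% in other cells, and 21 myelin genes made up 1.46% and 1.20%, against 0.214% and 0.184%. All 48 and all 21 cells with 5 or 6 genes lay above the 95th percentile of other cells for the myelin list. Of these, 36 and 15 also lay below the 5th percentile for the precursor list. Of the cells with 3 or 4 genes, 13 of 27 and 14 of 24 lay above the myelin percentile, 8 and 4 were also below the precursor percentile, and 14 and 10 were in neither range. By these lists all cells with 5 or 6 genes were raised in myelin genes, though 12 and 6 of them were not below the precursor percentile. The cells with 3 or 4 are a mixture. A precursor list and a myelin list cannot tell a committed precursor from a later oligodendrocyte, so this check does not settle the name.

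**Figure D2:**
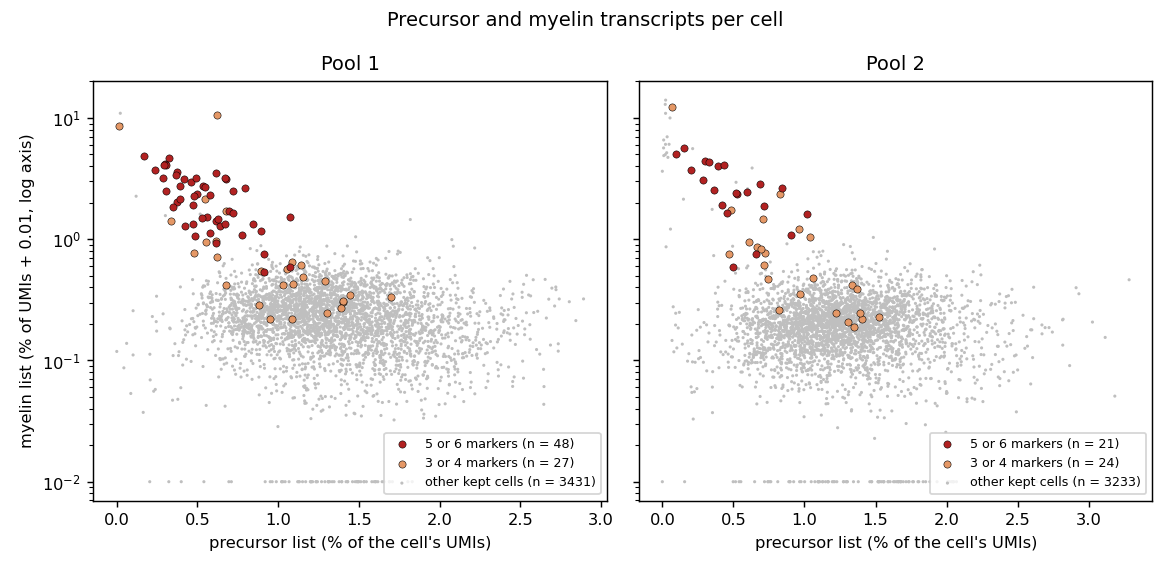
Each point is a cell, placed by the share of its UMIs in the 16-gene precursor list (horizontal) and the 21-gene myelin list (vertical, logarithmic, with 0.01 added), for pool 1 and pool 2. Cells with 5 or 6 genes of the rule (48 and 21) lie above the bulk of other cells and to its left, while those with 3 or 4 (27 and 24) reach into it.

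Counts were summed over the members and over the other cells of each pool, and compared by edgeR's quasi-likelihood F test with the pool as a block. Of 14217 genes tested, without the 6 of the rule, 1105 were higher (7.77%) and 1141 lower in members (8.03%) at an adjusted p under 0.05, and 643 (4.52%) and 622 (4.38%) by at least 2-fold. Because members were chosen on transcripts of the same cells, every gene that varies together with the 6 had to differ, so these calls describe what the chosen cells share and their number is not a finding. The 4 sums leave 1 residual degree of freedom, while the median total per gene was 16.6. The spread behind the p-values is thus largely one that edgeR shares across genes. It comes from 2 libraries and does not measure variation between tumours. The median log2 fold change over all genes tested was −0.05. Each list below is described by its counts beside those shares of all genes, with no test of the list. With other cells matched to members on depth, 1163 genes were higher and 1173 lower, and without the cells of highest doublet score 1092 and 1175. The latter removed only 5 and 0 members, and the score itself called 0 and 1 doublets, so it cannot tell whether doublets bear on the calls.

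**Figure D3:**
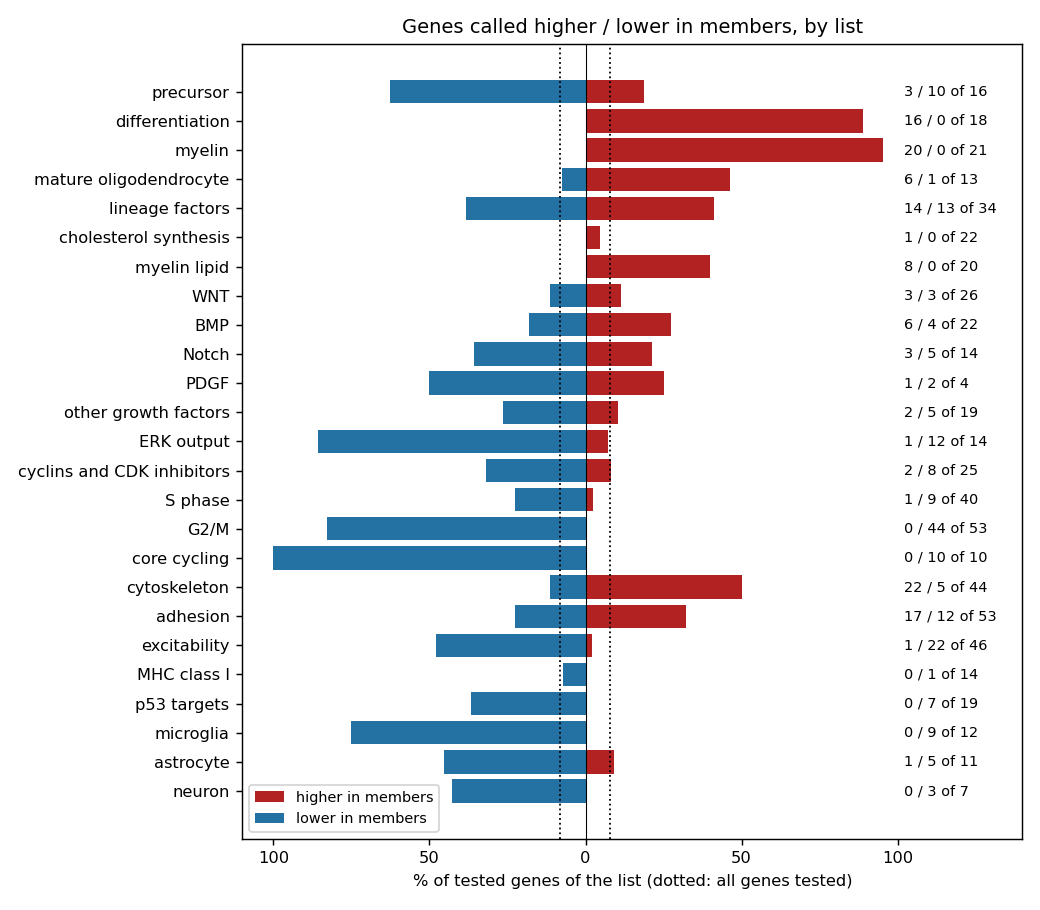
Share of each list's tested genes called higher in members (right, red) and lower (left, blue), with the counts at the right margin, higher first; dotted lines mark the shares over all genes tested, 7.77% and 8.03%. The myelin (20 of 21) and differentiation (16 of 18) lists reach furthest to the right, and the core cycling (10 of 10), ERK output (12 of 14) and G2/M (44 of 53) lists furthest to the left.

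Of the 16 precursor genes, 10 were lower and 3 higher in members (median log2 −0.59). Pdgfra, the receptor through which PDGFB acts, was at 439 and 634 CPM in members, against 1309 and 1316 CPM in other cells (log2 fold change −1.26 ± 0.12 SE, adjusted p = 1.04e-06). Both pools were lower, and within members the level was 215 and 262 CPM in cells with 5 or 6 genes but 911 and 926 CPM in cells with 3 or 4. Cspg4, the NG2 proteoglycan, was at 224 and 390 CPM in members against 575 and 552 CPM (−0.87 ± 0.15, adjusted p = 0.000547). The phosphatase gene Ptprz1 stood at 1764 and 2015 CPM against 3240 and 3305 CPM (−0.74 ± 0.10, adjusted p = 3.94e-05). Megf11 (−1.12), Xylt1 (−1.08) and Serpine2 (−0.86) were lower as well. The other 3 called genes of the list moved the other way. Vcan, a matrix proteoglycan, was at 841 and 675 CPM in members against 451 and 353 CPM (0.98 ± 0.11, adjusted p = 4.77e-06), and Luzp2 (0.70) and the transcription factor Sox6 (0.61) were higher too. In mice Sox6 is known for holding precursors back from maturing.

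Of 18 differentiation genes tested, 16 were higher and none lower (median log2 2.74). Gpr17, a receptor known as a timer of oligodendrocyte maturation, was at 1390 and 1260 CPM in members, against 221 and 142 CPM in other cells (2.96 ± 0.13, adjusted p = 3.13e-11). Within members it was at 1604 and 1449 CPM in cells with 5 or 6 genes of the rule and 938 and 1112 CPM in cells with 3 or 4. Bcas1, which marks early myelinating cells, was at 2236 and 1269 CPM in members against 199 and 206 CPM (3.12 ± 0.17, adjusted p = 5.24e-10). Fyn, a kinase that acts on the cytoskeleton as oligodendrocytes branch, was at 2774 and 2390 CPM against 354 and 411 CPM (2.81 ± 0.13, adjusted p = 4.88e-11). Sirt2, a tubulin deacetylase of myelin, was at 2712 and 2376 CPM against 276 and 243 CPM, and its level in cells with 5 or 6 genes, 3606 and 4327 CPM, was above that in cells with 3 or 4, 827 and 846 CPM, in both pools. For Nfasc, whose product joins glia to axons, members had 916 and 1234 CPM and other cells 104 and 114 CPM (3.35 ± 0.12, adjusted p = 4.5e-12). Tns3 (2.89), the sialidase gene Neu4 (2.59) and the calcium channel gene Itpr2 (1.42) followed. The largest fold of the list was that of Kif19a, a kinesin gene, at 45.4 and 36.0 CPM against 0.249 and 0.253 CPM (7.35 ± 0.57, adjusted p = 6.12e-08).

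The myelin list had 20 of 21 genes higher and none lower (median log2 3.58), but its genes fell into an early and a late set among the members. Mbp, myelin basic protein, was at 2501 and 2227 CPM in members, against 45.2 and 68.6 CPM in other cells (5.46 ± 0.17, adjusted p = 2.29e-12), and its level in cells with 5 or 6 genes reached 3314 and 4584 CPM, against 787 and 378 CPM in cells with 3 or 4. Mag, an adhesion protein of the inner myelin wrap, was at 422 and 323 CPM in members against 4.91 and 14.4 CPM (5.46 ± 0.31, adjusted p = 1.3e-09). In pool 1, 206 of its 530 member UMIs were in 1 cell, and the level was 349 CPM in cells with 5 or 6 genes and 577 CPM in cells with 3 or 4. In pool 2 those levels were 622 and 88.1 CPM. Cnp (3.63), the tight junction gene Cldn11 (3.63) and the connexin gene Gjc3 (3.58) were higher in members as well. Gjc3 stood at 780 and 1166 CPM in cells with 5 or 6 genes, and at 163 and 130 CPM in cells with 3 or 4.

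Late myelin genes were called higher in members, but a few cells held their transcripts. Mal, a lipid-raft protein of compact myelin, was at 599 and 161 CPM in members against 11.5 and 42.5 CPM in other cells (3.95 ± 0.57, adjusted p = 7.72e-05). In pool 1, 684 of its 753 member UMIs were in 1 cell, and in pool 2, 156 of 157. Opalin had 111 of 118 UMIs in 1 cell of pool 1 and all 15 in 1 cell of pool 2; Ermn, an actin-binding gene of late stages, had 43 of 59 and 30 of 30. Cells with 5 or 6 genes of the rule had next to none of them: 1 UMI of Mal in each pool, 1 and 0 of Opalin, 1 and 1 of Mobp and 0 of Ermn and of Aspa in both. Mog, a surface protein of myelin, differed, with 61 and 30 UMIs in those cells. UMIs of at least 4 of the 5 genes Opalin, Mal, Mobp, Ermn and Mog were found in 2 members of pool 1 and 1 of pool 2, all with 3 or 4 genes of the rule, and in 2 and 18 other cells. In pool 1 these members had a median of 30642.5 UMIs, with Pdgfra at 783 and Gpr17 at 277 CPM. The other cells of this kind there had a median of 15573.5 UMIs and 0 CPM of both. In pool 2 the member had 13499 UMIs, 74.1 CPM of Pdgfra and 0 of Gpr17. The others there had 13029.5 UMIs, 169 and 19.2 CPM. Whether any of these barcodes held more than 1 cell was not tested. Without all cells of this kind, which was tried after their values were seen, Mal (0.62) and Mobp (1.68) no longer passed and Ermn was at −7.29. With members limited to cells with 5 or 6 genes, the cells with 3 or 4 counted as other cells. Mal was then at −4.49, Mobp at −3.12 and Ermn at −9.91. The cells with 3 or 4 genes held 752 and 156 UMIs of Mal, so these values are not against the same other cells as before.

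Of 13 genes of mature oligodendrocytes 6 were higher and 1 lower, and they were spread over the members in unlike ways. Trf, transferrin, was at 152 and 111 CPM in members against 8.73 and 30.4 CPM (3.05 ± 0.34, adjusted p = 4.94e-06), with 396 and 174 CPM in cells with 3 or 4 genes and 36.4 and 30.4 CPM in cells with 5 or 6. With members limited to 4 or more genes, and cells with 3 counted as other cells, Trf did not pass (0.53). Car2, a carbonic anhydrase gene, was at 76.4 and 95.6 CPM against 28.0 and 18.9 CPM (1.94 ± 0.20, adjusted p = 2.02e-06). With members limited to 5 or 6 genes, and cells with 3 or 4 counted as other cells, Car2 was lower in members (log2 −2.69). In each pool 1 member held most of it, 72 of 96 UMIs in pool 1 and 87 of 93 in pool 2. Ptgds, a prostaglandin synthase gene, was at 233 and 266 CPM in members against 28.4 and 194 CPM (1.78 ± 0.37, adjusted p = 0.00237), and the pools differed in which members held it. In pool 1, 65 of its UMIs were in cells with 5 or 6 genes and 228 in cells with 3 or 4, but in pool 2 it was 249 and 10. It did not pass with the DESeq2 Wald test or without the block. Pmp22, a membrane protein gene known from peripheral myelin, was lower, at 43.0 and 81.2 CPM against 144 and 163 CPM (−1.29 ± 0.17, adjusted p = 3.5e-05).

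Among 34 lineage transcription factor genes, 14 were higher and 13 lower, both well over the shares of all genes. Myrf, the regulator of myelin genes, was at 142 and 110 CPM in members, against 2.83 and 4.68 CPM in other cells (5.15 ± 0.24, adjusted p = 9.6e-11). St18 (Myt3) was at 44.6 and 28.8 CPM against 0.342 and 0.886 CPM (5.98 ± 0.58, adjusted p = 1.04e-06). Tcf7l2, a WNT effector needed for differentiation, was at 384 and 392 CPM against 49.9 and 49.4 CPM (3.02 ± 0.13, adjusted p = 3.13e-11), and cells with 5 or 6 genes had 506 and 788 CPM of it, against 126 and 80.7 CPM in cells with 3 or 4. Nkx2-2 (1.77), Nkx6-2 (3.37), Zeb2 (1.71), Sox4 (1.40) and Sox8 (1.26) were higher as well; without the pool as a block Nkx6-2 no longer passed. Sox10, the lineage factor that is on at all stages, was at 493 and 576 CPM against 317 and 348 CPM (0.74 ± 0.11, adjusted p = 0.000134). Olig2, which founds the lineage, stood at 525 and 407 CPM in members and 607 and 520 CPM in other cells and did not pass (−0.22 ± 0.11, adjusted p = 0.24), and Olig1 was at 1490 and 1823 CPM against 2833 and 2127 CPM (−0.52 ± 0.13, adjusted p = 0.00914). Factors of progenitors were lower, among them Sox9 (−1.02) and Sox11 (−0.71). Olig1 did not pass without the block.

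**Figure D4:**
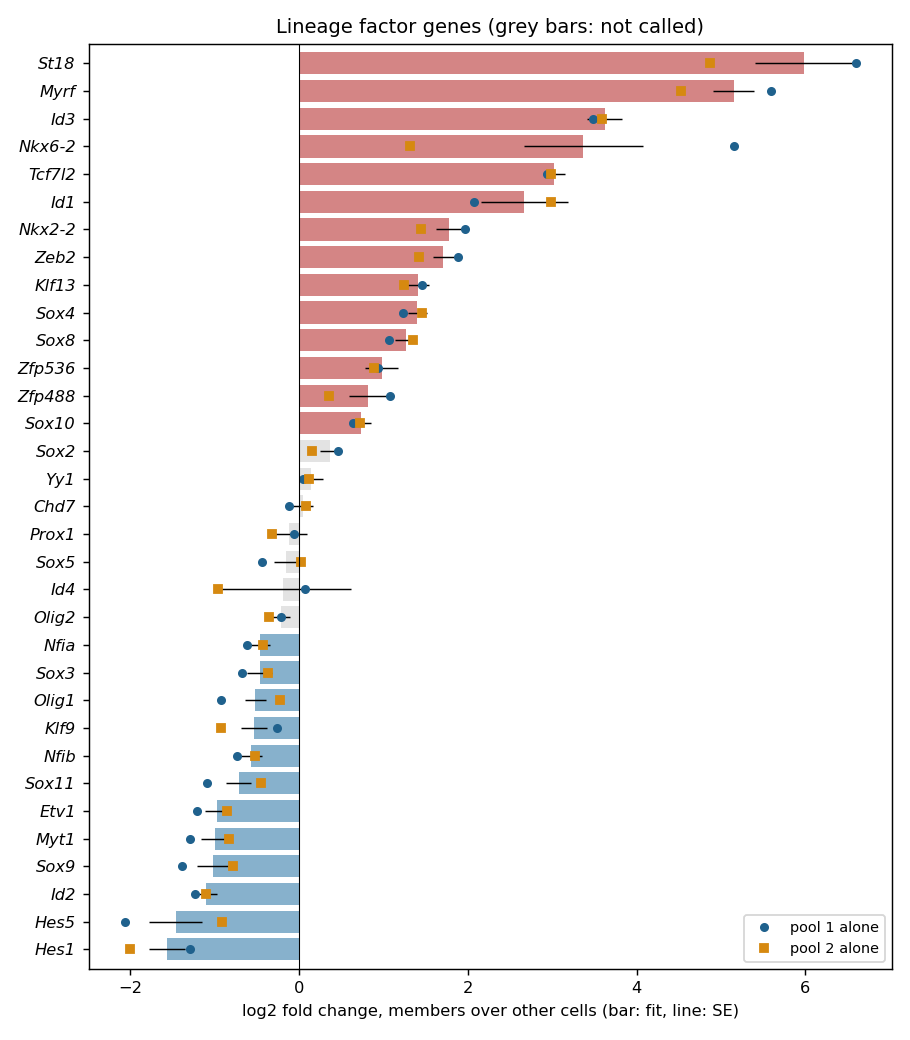
Log2 fold change of lineage factor genes, members over other cells (bars, with the SE as a line), and the value in each pool alone (points, computed with a prior count); red and blue bars were called higher or lower, grey bars were not. St18 (5.98) and Myrf (5.15) stand at the top and Hes1 (−1.57) at the bottom, with both pools on the same side for each of the 3.

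Signals known to hold differentiation back were mixed. Of the 22 BMP genes tested besides Bmp4, 6 were higher and 4 lower. Id3, a direct BMP target, was at 71.6 and 77.1 CPM in members against 6.28 and 6.30 CPM (3.62 ± 0.21, adjusted p = 1.47e-09), but in pool 1 nearly all of it was in cells with 5 or 6 genes, at 102 CPM against 7.43 CPM in cells with 3 or 4, while in pool 2 the levels were 77.1 and 77.0 CPM. Id1 (2.67) and the inhibitory Smad7 (1.81), also targets, were higher, as was the transducer Smad1 (0.87). The family member Id2 was lower, at 72.4 and 157 CPM against 170 and 337 CPM (−1.10 ± 0.14, adjusted p = 1.4e-05). Bmp7, a second ligand, was lower at 26.3 and 48.3 CPM against 95.6 and 102 CPM (−1.39 ± 0.19, adjusted p = 4.65e-05), and so were the receptor Bmpr1a (−0.68) and the antagonist Chrdl1 (−1.72). In the Notch list 3 of 14 were higher and 5 lower. The target Hes1 was at 25.5 and 22.6 CPM in members against 62.3 and 91.2 CPM (−1.57 ± 0.21, adjusted p = 4.41e-05), and in cells with 5 or 6 genes at 10.6 and 2.34 CPM. Hes5 (−1.46), Nrarp (−1.27), the ligand Dll3 (−0.84) and the receptor Notch1 (−0.51) were lower, and Hey2 (0.93), Rbpj (0.51) and the rare Heyl (10 UMIs in members) were higher. The WNT list was close to the shares of all genes, with 3 of 26 higher and 3 lower. Its higher genes were Tcf7l2, Tcf7l1 (1.01) and the feedback gene Axin2, at 26.3 and 34.9 CPM against 16.3 and 15.7 CPM (0.98 ± 0.24, adjusted p = 0.00861), and its lower genes the ligand Wnt7b (−1.02) and the receptors Fzd1 and Fzd9. With the DESeq2 Wald test Axin2, Tcf7l1, Wnt7b, Fzd1, Fzd9, Notch1, Dll3, Hes5, Hey2, Rbpj and Bmpr1a did not pass.

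The PDGF genes differed by role. Pdgfa, a ligand of Pdgfra, was at 127 and 91.5 CPM in members against 23.7 and 24.1 CPM (2.25 ± 0.17, adjusted p = 5.82e-08), and at 164 and 157 CPM in cells with 5 or 6 genes. Pdgfb, the gene of the ligand that induced the tumours, was at 10.3 and 12.3 CPM against 30.2 and 31.7 CPM (−1.40 ± 0.28, adjusted p = 0.00157). Whether transcripts of the transferred gene were counted in it is not given in the sources used here. Genes that report the ERK cascade downstream of growth factor receptors were lower for 12 of 14 tested and higher for 1 (median log2 −1.32). Dusp6, an ERK phosphatase induced by ERK, was at 26.3 and 49.3 CPM against 108 and 146 CPM (−1.72 ± 0.17, adjusted p = 1.47e-06). The feedback inhibitors Spry1 (−1.44), Spry2 (−1.58) and Spry4 (−1.55) were each lower in both pools, and Spry4 had 29.3 and 23.4 CPM with 5 or 6 genes against 109 and 105 CPM with 3 or 4. Etv4, an ERK-responsive factor, was lower (−1.21), and Dusp4, an ERK phosphatase gene, had no UMI in members and 4.57 and 7.54 CPM in other cells (adjusted p = 0.00537; it did not pass with the DESeq2 Wald test). The exception was Epha4, an ephrin receptor gene, at 67.7 and 40.1 CPM against 22.9 and 11.9 CPM (1.70 ± 0.20, adjusted p = 1.1e-05). Of 19 further growth factor genes 2 were higher and 5 lower. Fgfr3, a receptor known from glia, was at 15.1 and 16.4 CPM in members against 2.18 and 2.51 CPM (2.81 ± 0.48, adjusted p = 0.000408), while Fgfr1 (−0.96), Ntrk2 (−0.53), Igfbp2 (−1.50) and Igfbp3 (−1.65) were lower. Fgfr2, with 16 UMIs in members, did not pass without the cells rich in late myelin genes.

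Genes of division were lower. All 10 core cycling genes were lower, as were 44 of 53 G2/M genes, with none higher in either list; of 40 S phase genes 9 were lower and 1, E2f8, was higher. Top2a, a topoisomerase of dividing cells, was at 111 and 33.9 CPM in members against 322 and 218 CPM (−1.90 ± 0.20, adjusted p = 2.53e-06). Mki67 was at 110 and 11.3 CPM against 270 and 176 CPM (−1.96 ± 0.31, adjusted p = 0.000185); 10 of its 11 member UMIs in pool 2 were in 1 cell. Ccnb1 was at 21.5 and 41.1 CPM against 85.2 and 52.8 CPM (−1.10 ± 0.26, adjusted p = 0.00717), with 37 of 40 member UMIs of pool 2 in 1 cell; without cycling cells it was at 3.47. Cells with UMIs of at least 2 of the 10 core genes, after each cell was thinned to 2000 UMIs, were 5 of 73 members of pool 1 (6.85%, 2.26 to 15.3%) and 1 of 44 of pool 2 (2.27%, 0.0575 to 12.02%), against 17.3% and 11.4% of other cells. Without thinning the shares were 18.7% and 20% of members, against 28.8% and 22.7% of other cells, and the depth of members favours detection. In cells with 5 or 6 genes thinned shares were 4.17% (2 of 48) and 0 of 21, with an exact upper limit of 16.1%. With members taken from 2 or more genes of the rule, the thinned share in pool 2 was 10.9%, against 11.3% in other cells. The part of free RNA in these calls was not tested. In pool 2 the member interval held the share of other cells both with thinning (0.0575 to 12.02%) and without it (9.58 to 34.6%). In pool 1 it did so without thinning only (10.6 to 29.3%). Those differences were thus not detectable at this number of cells.

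The cyclin and inhibitor genes did not move as a block, with 2 of 25 higher and 8 lower, Ccnd1 and Ccne2 being on other lists too. Cdkn1c, the inhibitor p57, was at 79.6 and 46.3 CPM in members against 2.49 and 1.62 CPM (4.98 ± 0.30, adjusted p = 1.94e-09). It was spread over 28 and 19 members. In pool 1 it was at 108 CPM in cells with 5 or 6 genes and 19.8 CPM in cells with 3 or 4, but in pool 2 the order was the other way, at 35.1 and 55.03 CPM. The other inhibitors that were called were lower: Cdkn1a, p21, at 50.9 and 102 CPM against 144 and 185 CPM (−1.10 ± 0.16, adjusted p = 9.21e-05), Cdkn2a (−1.36), Cdkn2b (−1.72) and Cdkn2c. Cdkn1b, p27, stood at 83.6 and 78.1 CPM in members and 108 and 104 CPM in other cells and did not pass (−0.33 ± 0.15, adjusted p = 0.154). Ccnd1, the D-type cyclin induced by growth factors, was at 713 and 1248 CPM against 2517 and 2484 CPM (−1.35 ± 0.14, adjusted p = 2.36e-06), and at 387 and 479 CPM in cells with 5 or 6 genes. Ccnd2 was lower too (−1.09), and Mxi1, an antagonist of MYC, higher (1.12).

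Lipid genes divided by product. Of 20 genes of myelin lipid synthesis 8 were higher and none lower, while of 22 cholesterol synthesis genes 1, Fdft1, was higher and none lower, under the share of all genes. Elovl7, a fatty acid elongase gene, was at 112 and 95.6 CPM in members against 7.68 and 7.27 CPM (3.86 ± 0.19, adjusted p = 1.52e-10). Ugt8a, which makes galactosylceramide, was at 417 and 337 CPM against 106 and 108 CPM (1.87 ± 0.13, adjusted p = 1.84e-08), and Gal3st1, which sulphates it, at 246 and 200 CPM against 61.0 and 64.8 CPM (1.89 ± 0.14, adjusted p = 4.46e-08). The ceramide synthase gene Cers2 (0.81) and the desaturase gene Scd2 (0.65) were higher by less. The value for Fdft1 was 0.55 ± 0.17 (adjusted p = 0.0301), and it did not pass under 5 of the 13 alternatives with a test.

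Cytoskeletal genes were higher for 22 of 44 and lower for 5. Chn2, a Rac GTPase-activating protein gene, was at 642 and 645 CPM in members against 35.4 and 60.5 CPM (3.86 ± 0.17, adjusted p = 3.82e-11), and at 891 and 1356 CPM with 5 or 6 genes of the rule, against 116 and 88.1 CPM with 3 or 4. Map1b, a microtubule-associated protein gene, was at 1438 and 1118 CPM against 143 and 135 CPM (3.25 ± 0.12, adjusted p = 7.92e-12). Tubb4a, the tubulin gene of myelinating cells, was at 869 and 766 CPM against 80.6 and 117 CPM (3.13 ± 0.16, adjusted p = 2.25e-10). Tppp (2.86), Epb41l2 (3.21), Kif21a (4.70) and Tuba1a (1.37) were higher, and Stmn1, which destabilises microtubules, lower (−0.65). Without cells with UMIs of at least 2 of the 10 core cycling genes Stmn1 turned to 0.44. Adhesion and guidance genes were higher for 17 of 53 and lower for 12. Plxnb3, a semaphorin receptor gene, was at 147 and 172 CPM against 9.14 and 13.97 CPM (3.87 ± 0.17, adjusted p = 3.13e-11), and Sema4d, a semaphorin, at 100 and 144 CPM against 9.11 and 9.80 CPM (3.73 ± 0.18, adjusted p = 1.21e-10). Rtn4, whose product Nogo limits axon growth, was higher (1.88), as was the matrix glycoprotein gene Tnr (1.55). The integrin genes Itgav, at 112 and 141 CPM against 365 and 324 CPM (−1.39 ± 0.14, adjusted p = 1.58e-06), and Itgb8 (−0.82) were lower.

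Ion channel and neurotransmitter receptor genes were lower for 22 of 46 and higher for 1, Kcna2 (0.86), a potassium channel gene. The glutamate receptor gene Grm5 was at 146 and 209 CPM in members against 451 and 444 CPM (−1.30 ± 0.14, adjusted p = 2.48e-06). The potassium channel genes Kcnd2 (−0.87) and Kcnd3 (−1.08), the sodium channel gene Scn1a (−1.21) and the GABA receptor gene Gabrg1 (−1.58) were lower, each with less in cells with 5 or 6 genes than in cells with 3 or 4 in both pools. Gria2, an AMPA receptor subunit gene, differed least of those called, at 1079 and 858 CPM against 1364 and 1247 CPM (−0.38 ± 0.11, adjusted p = 0.0232), and it did not pass under 6 of the 13 alternatives. For p53 targets 7 of 19 were lower and none higher, among them Plk2 (−1.44) and Phlda3 (−0.82), and for MHC class I genes 1 of 14, B2m, was lower (−0.62) and none higher.

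Markers of other cell types were low in members. Of 12 microglial genes 9 were lower, and their summed level was 20.7 and 19.5 CPM in members, against 109 and 165 CPM in other cells. The other cells included 25 and 19 barcodes with at least 3 of these genes, at 10936.1 and 17522.5 CPM. Other cells with 2 genes of the rule had 25.4 and 24.4 CPM, those with 1 had 33.3 and 31.5 CPM, and those with 0 had 133 and 214 CPM. The lower calls may thus reflect a few barcodes among the other cells, which was not tested. C1qa, Cx3cr1, Tyrobp, Trem2, Aif1 and Tmem119 had no UMI in members. Of 12 astrocyte genes, 11 were tested and 5 were lower and 1, Fgfr3, higher, with sums of 619 and 787 CPM against 1213 and 1331 CPM. Neuronal genes summed to 342 and 505 CPM against 819 and 834 CPM, vascular genes to 1.59 and 3.08 CPM against 3.98 and 3.77 CPM, and ependymal genes to 4.78 and 3.08 CPM against 5.19 and 3.32 CPM. Of 7 neuronal genes tested 3, Dcx, Gap43 and Snap25, were lower; of 1 vascular and 2 ependymal genes tested none was called. Erythroid genes were at 0 and 1.03 CPM in members, against 0.0932 and 61.0 CPM. In pool 2, other cells with 1 gene of the rule stood at 288 CPM, and erythroid genes made up 11.1% of the UMIs of 1 such cell. An alternative left out cells with at least 3 genes of the microglial, vascular or mature oligodendrocyte list, and gave 1113 higher and 1446 lower genes. Nearly all cells it removed passed on the mature oligodendrocyte list. These were 985 of 1005 and 1262 of 1272 other cells, and all 26 and all 21 members removed. The astrocyte, neuronal, ependymal and erythroid lists were not used, so whether such cells among the others bear on any result was not tested.

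Over all genes, genes were drawn from the 15 with the largest folds in each direction. Besides Kif19a, St18 and Mbp, the higher ones included Rassf10, Fam129a, 9530059O14Rik, Itgb7, Gm36988, Bgn, Cdk18, Parvb, Tspan17, 1700047M11Rik and Epcam. Rassf10 was at 54.9 and 38.0 CPM in members, spread over 22 and 13 of them, against 0.186 and 0.0253 CPM in other cells (8.87 ± 0.62, adjusted p = 1.62e-08). The non-coding 9530059O14Rik was at 362 and 174 CPM against 2.08 and 0.456 CPM (7.88 ± 0.22, adjusted p = 4.19e-13). Parvb, which links integrins to actin, was at 103 and 133 CPM against 2.42 and 1.34 CPM (6.04 ± 0.26, adjusted p = 3.13e-11). Bgn, the proteoglycan biglycan, was at 32.6 and 68.9 CPM against 0.901 and 0.380 CPM (6.34 ± 0.54, adjusted p = 1.69e-07), and Epcam, an epithelial adhesion gene, at 45.4 and 31.9 CPM against 0.559 and 0.937 CPM (5.74 ± 0.51, adjusted p = 3.04e-07).

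The lower ones, besides division genes (Aurkb, Sgo1, Hist1h3c and Hist1h1b), included C1qa, Hmga2, Vgf, Ptgfrn, Rasgrf1, I730030J21Rik, Lgals1, Tnfrsf12a, Gm43847 and Rgs20. Hmga2, a chromatin protein of fetal and tumour cells, had 2 UMIs in members, at 0.796 and 1.03 CPM, against 40.9 and 35.8 CPM (−5.36 ± 0.48, adjusted p = 3.16e-07). Ptgfrn was at 13.5 and 17.5 CPM against 95.9 and 115 CPM (−2.71 ± 0.20, adjusted p = 3.87e-08). Vgf, a secreted neuropeptide precursor gene, was at 3.98 and 1.03 CPM against 26.0 and 52.4 CPM (−3.73 ± 0.44, adjusted p = 8.67e-06), and Rasgrf1, a RAS activator gene, at 4.78 and 6.17 CPM against 29.2 and 44.8 CPM (−2.68 ± 0.32, adjusted p = 1.07e-05). C1qa, of the microglial list, was at least 16.3-fold lower, with members set to 3 counts over both pools. The other cells in that comparison included the 25 and 19 barcodes with at least 3 microglial genes.

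Among the 48 and 21 cells with 5 or 6 genes of the rule, several genes varied together from cell to cell. Mbp ranged from 0 to 12898 CPM in pool 1, with a median of 1419 CPM, and from 0 to 13310 CPM in pool 2, with a median of 5022 CPM. Enpp6 was higher in cells with more Mbp (Spearman's rho across cells 0.80 and 0.86). So were Nfasc (0.82 and 0.88), Mag (0.72 and 0.86) and Tcf7l2 (0.70 and 0.71). Gpr17 ran the other way (−0.49 and −0.69), and Bmp4 weakly so (−0.18 and −0.43). Neu4 was at −0.68 in pool 2 but near 0 in pool 1. Cells share a library and depth enters each value: Mbp had a rho of 0.28 and 0.39 with the UMI total of the cell, and Gpr17 of −0.48 and −0.36. Enpp6 and Bmp4 are genes of the rule that chose these cells, so their spread here is shaped by that choice. All of these values are descriptions over cells of 2 libraries, with no test.

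**Figure D5:**
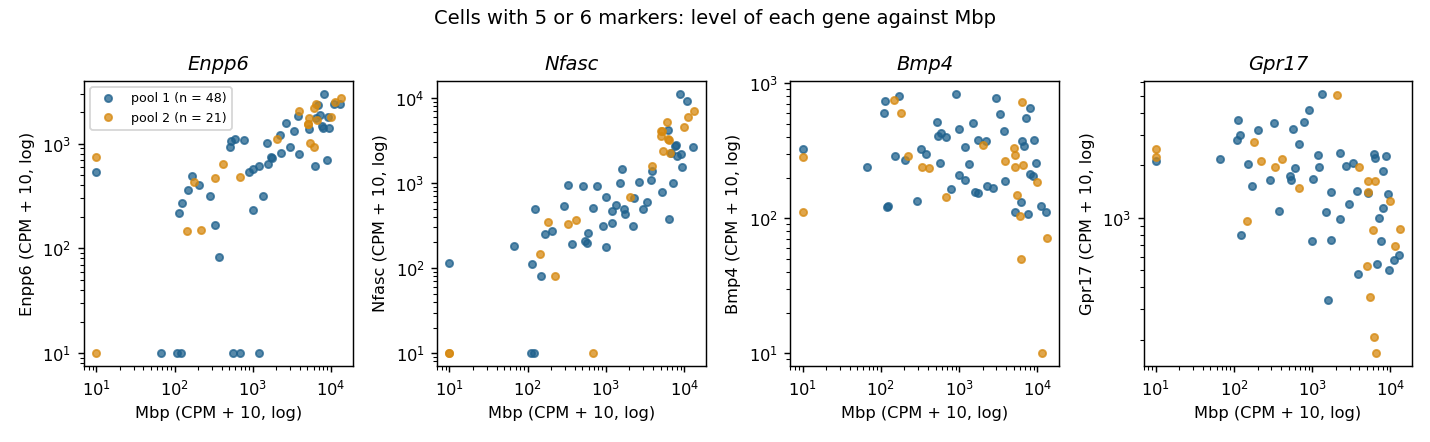
Level of Enpp6, Nfasc, Bmp4 and Gpr17 (vertical) against Mbp (horizontal) in each cell with 5 or 6 genes of the rule, in CPM with 10 added on logarithmic axes, for pool 1 (48 cells) and pool 2 (21 cells). Enpp6 and Nfasc climb with Mbp in both pools, with rho from 0.80 to 0.88, while Gpr17 declines, with rho of −0.49 and −0.69.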

How the data were processed

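Single-cell RNA was measured in 2 libraries (pools) of 1 group. The deposited tables hold whole-number UMI counts per gene and barcode, made by the authors with Cell Ranger 6.0.2 on GRCm38 (mm10), per the submitters' processing notes; the sources used here do not give their gene and cell filters, and each listed gene had counts in at least 3 barcodes. Barcodes under 500 detected genes or over 15% mitochondrial UMIs were set aside. The members and the gene lists were chosen with earlier results of these data known. Counts were summed per pool over members and over other cells and fitted with edgeR 4.0.16 (R 4.3.3): filterByExpr, TMM, the pool as a block because both sums of a pool come from 1 library, Benjamini-Hochberg adjustment over 14217 genes, threshold 0.05. The script was tested on simulated data. The 2 pools hold different tumours, and the tumour of a given cell is not recorded in the labels, so p-values do not measure the spread between tumours. They rest on these pools only, with a spread largely shared across genes. CPM refers to the UMIs of the cells summed and is compared within a gene only. Intervals are exact at 95% and cover counting error only. The SE beside a fold change is its absolute log2 value divided by the square root of the F statistic, as the test gives no SE itself. For shares of cycling cells each cell was thinned to 2000 UMIs, which left out 2 and 1 members and 387 and 403 other cells. Scrublet (scanpy 1.11.5) called 0 and 1 doublets and so had not worked; no doublet was removed, and the highest scores were left out as an alternative. The text names genes of the lists, and over all genes the 15 with the largest called fold each way, in the same direction in both pools and with at least 20 CPM on average where higher. A few genes that these rules select are not reported here, though list counts include them. The lists covered precursor, differentiation, myelin, mature oligodendrocyte, lineage factor, lipid, signalling, division, cytoskeleton, adhesion, channel, p53 and MHC genes and markers of other cell types. Alternatives changed the size factors, tool (DESeq2 1.42.0), low-count filter, block, number of markers, cell filter, depth, doublets, cycling cells and cells with markers of other types. Those markers were the microglial, vascular and mature oligodendrocyte lists, and nearly all cells removed passed on the last. After the data had been seen, 5 or more markers and the removal of cells rich in late myelin genes were added.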

Additional observations from a re-analysis of the deposited data

Results flagged for a closer look

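Genes listed in the table of 1 pool only were outside the fit. Of these, 4 had more UMIs in members than the limit of 3 counts. In pool 1, Crym had 5 UMIs in 3 members (3.98 CPM, against 0 in other cells), Gm26519 had 4 UMIs in 3 members (3.18 CPM, against 0), and Gm2675 had 8 UMIs in 1 member (6.37 CPM, against 0.124). In pool 2, Kcne4 had 7 UMIs in 4 members (7.19 CPM, against 0.0759 CPM). Each was seen in a single library and was not tested.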

How the results depend on the processing

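Of 170 named genes 168 were called, and 103 of these were called in the same direction under each of the 13 alternatives in which they were tested. Not all were tested in each. The fit held 163 of the 170 without cells with markers of other types, 167 with matched depth or without cycling cells, and 168 without late cells. The DESeq2 Wald test gave 718 higher and 489 lower genes, and 59.5% of calls were then higher, against 49.2% in the main fit. Members with 2 or more markers gave 412 lower genes (65.4% of calls higher), and members with 5 or more gave 1761. The fit with no replicate block, that is without pairing the sums of a pool, gave 815 higher and 623 lower genes. In 6 alternatives (no low-count filter, 4 or more markers, 5 or more, without other types, without late cells, without cycling cells) edgeR's median degrees of freedom per gene were 13012 to 16859, against 16.6 in the main fit, and their p-values are smaller by construction.

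The share of members was 4.67% with 2 or more markers, 1.005% with 5 or more and 0.924% when the rule was applied after thinning, and 1.37 to 2.14% with each pool left out in turn. The cycling share of members was 10.1% with 2 or more markers and 19.3% unthinned, and 2.27 to 6.85% with each pool left out. With 2 or more markers it was 9.34% in pool 1, against 17.6% in other cells, but 10.9% against 11.3% in pool 2, where it was 31.3% against 22.3% unthinned.

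With members of 4 or more and of 5 or more markers these genes changed sign: Aspa (−8.18 and −8.09), Car2 (−1.92 and −2.69), Cntn2 (−2.81 and −2.32), Ermn (−10.0 and −9.91), Mal (−4.96 and −4.49), Mobp (−2.38 and −3.12) and Opalin (−2.71 and −2.35). In both settings the members left out counted as other cells. Without cells carrying markers of other types Car2 was at −9.56, Cntn2 at −0.26 and Mobp at −0.24, and without cells rich in late genes Car2 was at −1.47, Cntn2 at −0.32 and Ermn at −7.29. The former alternative removed mostly cells with genes of the mature oligodendrocyte list, which holds Car2. Without cycling cells Ccnb1 was at 3.47 and Stmn1 at 0.44. A fitted value against members with no UMI is no measure of size. The cause was not tested. With 1 pool left out there is no test. No called named gene changed sign, and 50 and 44 moved by more than the SD between pools. The value of 1 pool was a log2 ratio with a prior count, set against the fitted value, so a move may come from either. For Rassf10 both pools (7.49 and 8.26) lay below the fit (8.87). Genes with few UMIs in members are limited by depth.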
